A study of Homo sapiens with 12 samples.

Results

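The genes described here encode the proteins of the mitochondrial ribosome. They were taken, by symbol alone, as every gene in the table whose symbol is MRPL or MRPS followed by a number and at most 1 letter. Earlier results of these data were known when the members and the gene lists used below were chosen. The rule found 78 genes among 52859, of which 49 carry the letter L for the large subunit and 29 the letter S for the small subunit. Their RNA was measured in MDA-MB-231, a human cell line of triple-negative breast cancer, 2 days after lipid transfection with 20 nM of a locked nucleic acid (LNA), a short oligonucleotide whose modified sugars make it bind a matching RNA tightly. There were 4 groups of 3 libraries: the mtAsn-1 LNA and the mtAsn-2 LNA, both named for the mitochondrial asparagine tRNA, the mtLys LNA, named for the mitochondrial lysine tRNA, and a control LNA. No untransfected group is among them, so every group carries an LNA and the transfection reagent. LNA sequences were not used here. Nothing in the labels ties the 3 libraries of a group to separate cultures, so the p-values rest on a spread between libraries that may be technical.

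The mitochondrial ribosome makes the few proteins that mitochondrial DNA encodes, which are core parts of the respiratory chain. Its ribosomal RNAs are transcribed in the organelle, whereas all of its proteins are encoded in the nucleus, made in the cytosol and imported. Many of these proteins descend from bacterial ribosomal proteins, and others were added in the mitochondrial lineage. As in other ribosomes, the small subunit decodes the mRNA, and the large subunit joins the amino acids and holds the exit tunnel for the new chain.

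Libraries held 17978825 to 37708993 counts, of which the 78 genes took 0.350% to 0.402%. VIM, a mesenchymal filament protein expected to be high in the line, stood at 3270 CPM in control libraries (CPM, counts scaled to library size). ESR1, the oestrogen receptor, expected to be low or absent, stood at 0.0891 CPM. Values of the other markers listed for the line, such as SPARC, FN1 and EPCAM, are not given here. Of the 78 genes, 75 passed the filter on low counts and were tested, 47 of the large and 28 of the small subunit. MRPS12, a decoding protein of the small subunit, had 0 counts in all 12 libraries. For a single library taken alone, a count of 0 allows an expected count of up to 3, and the 12 together allow less per library. MRPL23 had 35 counts in all libraries together and MRPL45, which anchors the large subunit at the inner membrane, had 10. An entry for MRPL45 on an alternate locus, listed as MRPL45-2, held 2080 counts. Its log2 fold changes against control were -0.03 for mtAsn-1, 0.04 for mtAsn-2 and -0.02 for mtLys, none of which passed. MRPS18B and MRPS24 were tested on 120 and 177 counts. MRPS18B has 6 alternate-locus entries with 0 counts, and 606 of the 667 exon bases of MRPS24 are shared with a read-through gene that had 0 counts. How reads that match several places were counted is not given in the sources used here, so the low values of these 5 genes need not reflect their expression. Exons of 22 of the 78 genes overlap a gene on the opposite strand, 7 of them over at least 20% of their length. Counting by strand is not stated either, and these genes are uncertain to that extent.

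Levels per exon length spanned a wide range. Among large subunit genes, the mean over the 12 libraries was highest for MRPL51 at 387 TPM (counts scaled to exon length and library size), followed by MRPL12 at 313 TPM and MRPL41 at 266 TPM. The highest small subunit genes were MRPS15 at 200 TPM, MRPS34 at 190 TPM and MRPS7 at 175 TPM. At the low end stood MRPL19 at 7.81 TPM, MRPL42 at 9.44 TPM and MRPS25 at 11.7 TPM, beside MRPS24 and MRPS18B with their few reads. MRPL42 had 18021 counts in all libraries together, divided by 15665 exon bases, the most of any member, so its low TPM need not mean few transcripts. Exons of MRPL19 overlap those of GCFC2 on the opposite strand over 84.4% of their length, and those of MRPS25 overlap NR2C2 over 53.9%. The median was 100 TPM for the 47 tested large subunit genes and 41.0 TPM for the 28 tested small subunit genes. TPM divides counts by the whole exon length of a gene, which is longer than the transcript where a gene has several isoforms.

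**Figure D1:**
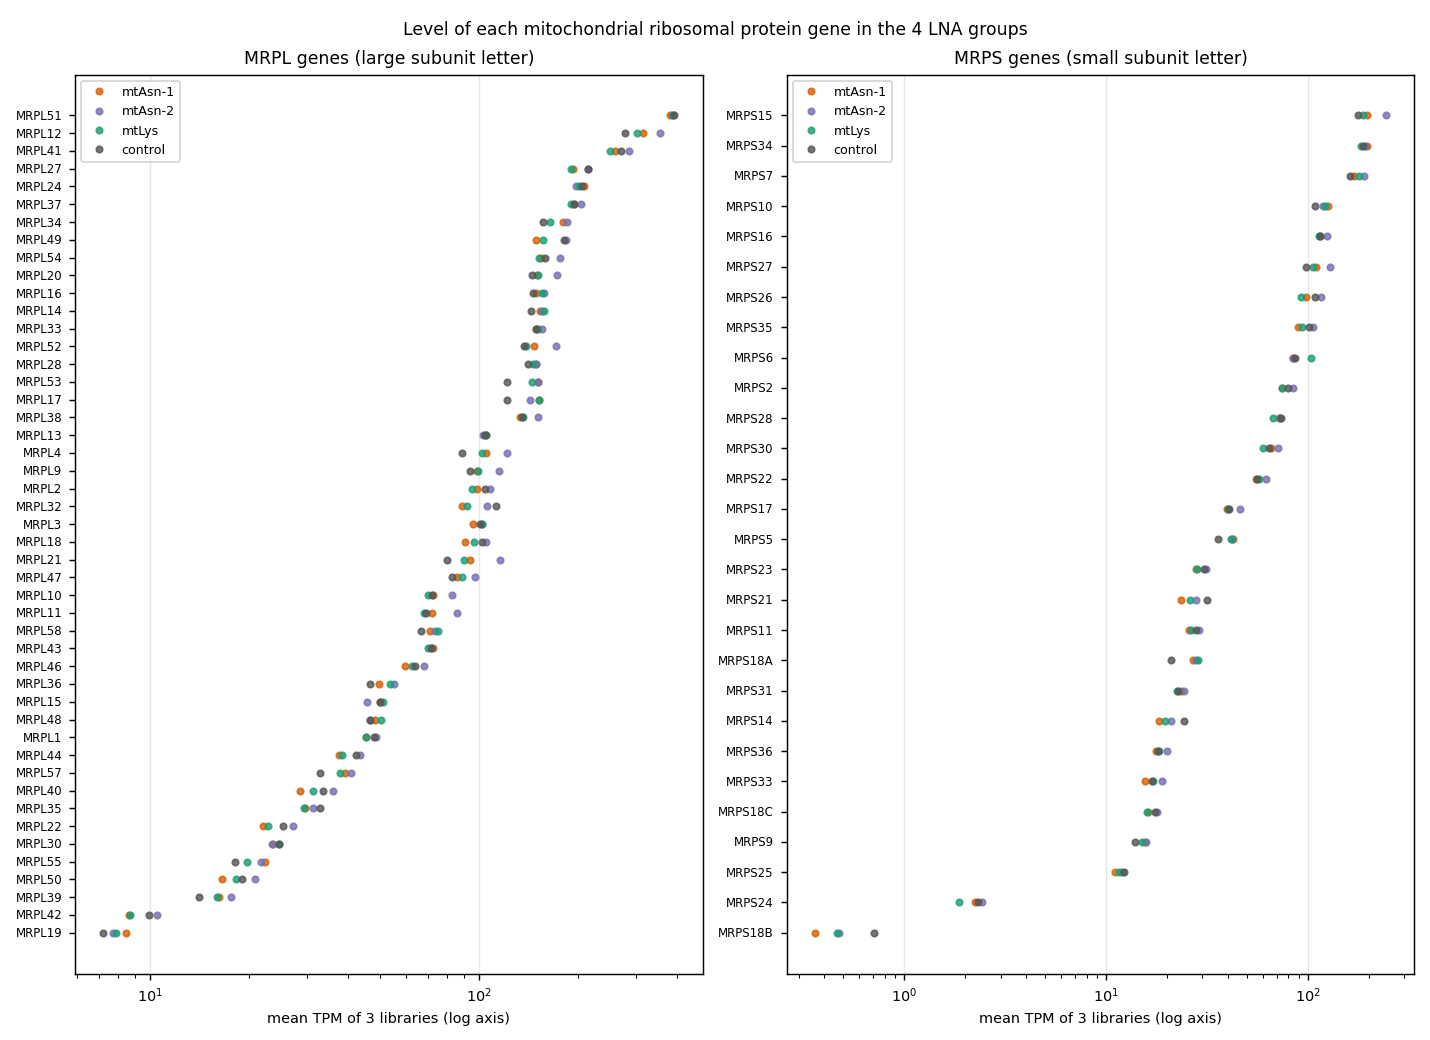
Mean TPM of 3 libraries (log axis) for each gene in the mtAsn-1, mtAsn-2, mtLys and control groups, large subunit letters on the left and small on the right, for genes with at least 100 counts in all. The 4 groups lie close together for each gene, over a range that reaches 387 TPM for MRPL51 and 7.81 TPM for MRPL19 in the large subunit.

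Summed over both subunits, the genes stayed within a narrow band. They summed to 3725, 3662 and 3677 CPM in mtAsn-1 libraries, to 3856, 3746 and 3761 CPM in mtAsn-2 libraries, to 3582, 3625 and 3668 CPM in mtLys libraries and to 3533, 3720 and 3549 CPM in control libraries. The mtAsn-2 libraries were the highest and lay above every control library, while the mtAsn-1 and mtLys libraries overlapped the control libraries, of which replicate 2 was the highest. Group means were 3688 ± 33.1 CPM with mtAsn-1, 3787 ± 59.9 CPM with mtAsn-2, 3625 ± 43.2 CPM with mtLys and 3600 ± 103 CPM with control (SD, n = 3 each). The mtAsn-2 sum depended on the scaling: its log2 difference from control was 0.073 with TMM factors and 0.149 with library size alone. CPM is scaled to the counts of each library, so these sums do not give the amount of RNA per cell.

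Large and small subunit genes kept nearly the same proportion in every library. Counts of large subunit genes were 2.18 ± 0.0075 times those of small subunit genes with mtAsn-1, 2.15 ± 0.0082 times with mtAsn-2, 2.18 ± 0.012 times with mtLys and 2.17 ± 0.014 times with control (SD, n = 3 each). The ratio ran between 2.14 and 2.20 over the 12 libraries, and the mtAsn-2 libraries, at 2.141, 2.156 and 2.153, were the lowest, just under control replicate 1 at 2.158. With MRPS18A and MRPS30 counted as large subunit proteins, where structures place them, and MRPS36 left out, the ratio was 2.35 with mtAsn-1, 2.32 with mtAsn-2, 2.35 with mtLys and 2.33 with control.

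**Figure D2:**
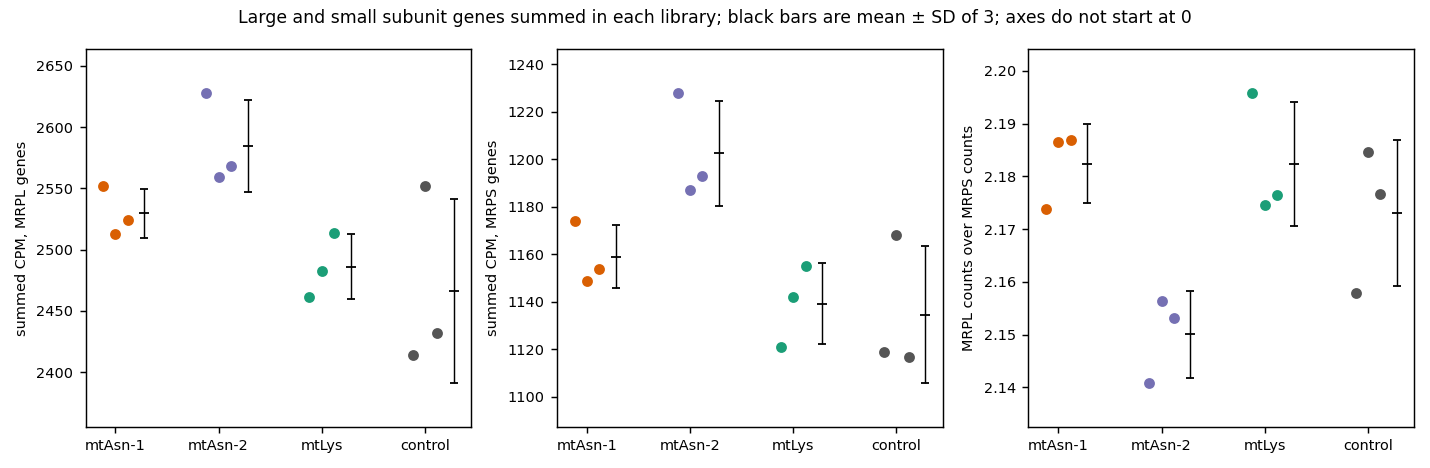
Summed CPM of large subunit genes (left), of small subunit genes (middle) and the ratio of their counts (right) in each library of the mtAsn-1, mtAsn-2, mtLys and control groups; points are libraries and black bars the mean ± SD of 3. The ratio lies between 2.14 and 2.20 in all libraries.

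Single members moved in both directions against control, by small amounts. With mtAsn-1, 17 of the 75 tested genes rose and 13 fell by edgeR at an adjusted p under 0.05, which is 22.7% and 17.3% of them, where 24.3% of all 16051 genes tested rose and 24.2% fell. With mtAsn-2, 20 rose and 7 fell (26.7% and 9.33%), beside 24.1% and 27.0% of all genes. With mtLys, 15 rose and 12 fell (20.0% and 16%), beside 24.6% and 23.9% of all genes. The shares of members that rose were thus near the background in all 3 comparisons, and the shares that fell were below it in all 3, by the most with mtAsn-2. The mtAsn-2 split of 20 to 7 was 34 to 1 with library size alone, 22 to 3 with upper-quartile factors and 21 to 5 with RLE factors. The split over all 16051 genes also depended on the scaling. It was 3862 to 4337 with TMM factors and 5158 to 3344 with library size alone. With upper-quartile factors it was 4331 to 3917, and with RLE factors 3977 to 4229. The count that fell also depended on control replicate 2, without which 6 genes fell for mtAsn-1, 3 for mtAsn-2 and 6 for mtLys. With mtAsn-2 it was also 3 without control replicate 3, and 4 without mtAsn-2 replicate 2, mtAsn-2 replicate 3 or mtLys replicate 2.

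Large changes were few. A rise of at least 25% or a fall of at least 20% was reached by 5 called genes with mtAsn-1 (6.67% of 75, against 27.2% of all genes), by 5 with mtAsn-2 (6.67%, against 29.9%) and by 3 with mtLys (4%, against 26.8%). The 5 with mtAsn-1 include MRPS18B, at -1.08 on the log2 scale, which had 120 counts in all libraries together. Its call, described below, was lost under several alternatives. The median absolute log2 fold change of the 75 genes was 0.10, 0.08 and 0.11 with mtAsn-1, mtAsn-2 and mtLys, beside 0.23, 0.24 and 0.22 over all genes tested. Their median log2 fold change was 0.01, 0.03 and -0.01 in the same order.

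By subunit, 11 of 47 large subunit genes rose and 9 fell with mtAsn-1, against 6 and 4 of 28 small subunit genes. With mtAsn-2 these counts were 15 and 5 of 47 for the large subunit, and 5 and 2 of 28 for the small. With mtLys they were 10 and 8 of 47, and 5 and 4 of 28. In either direction, 42.6%, 42.6% and 38.3% of the large subunit were called with mtAsn-1, mtAsn-2 and mtLys. For the small subunit these shares were 35.7%, 25.0% and 32.1%, beside 48.5%, 51.1% and 48.5% of all genes. Shares that rose were 23.4%, 31.9% and 21.3% for the large subunit and 21.4%, 17.9% and 17.9% for the small. Of all genes 24.3%, 24.1% and 24.6% rose. Shares that fell lay below those of all genes in each subunit with each LNA. Median log2 fold changes of the large and the small subunit were 0.03 and -0.01 under mtAsn-1. They were 0.04 and 0.03 under mtAsn-2, then 0.01 and -0.03 under mtLys. In the test over the 4 groups together, 40 of the 75 genes differed (53.3%), 28 large and 12 small, against 71.0% of all genes tested. The smallest p-values in that test belonged to MRPL17, MRPL21, MRPS15, MRPL4 and MRPS27.

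**Figure D3:**
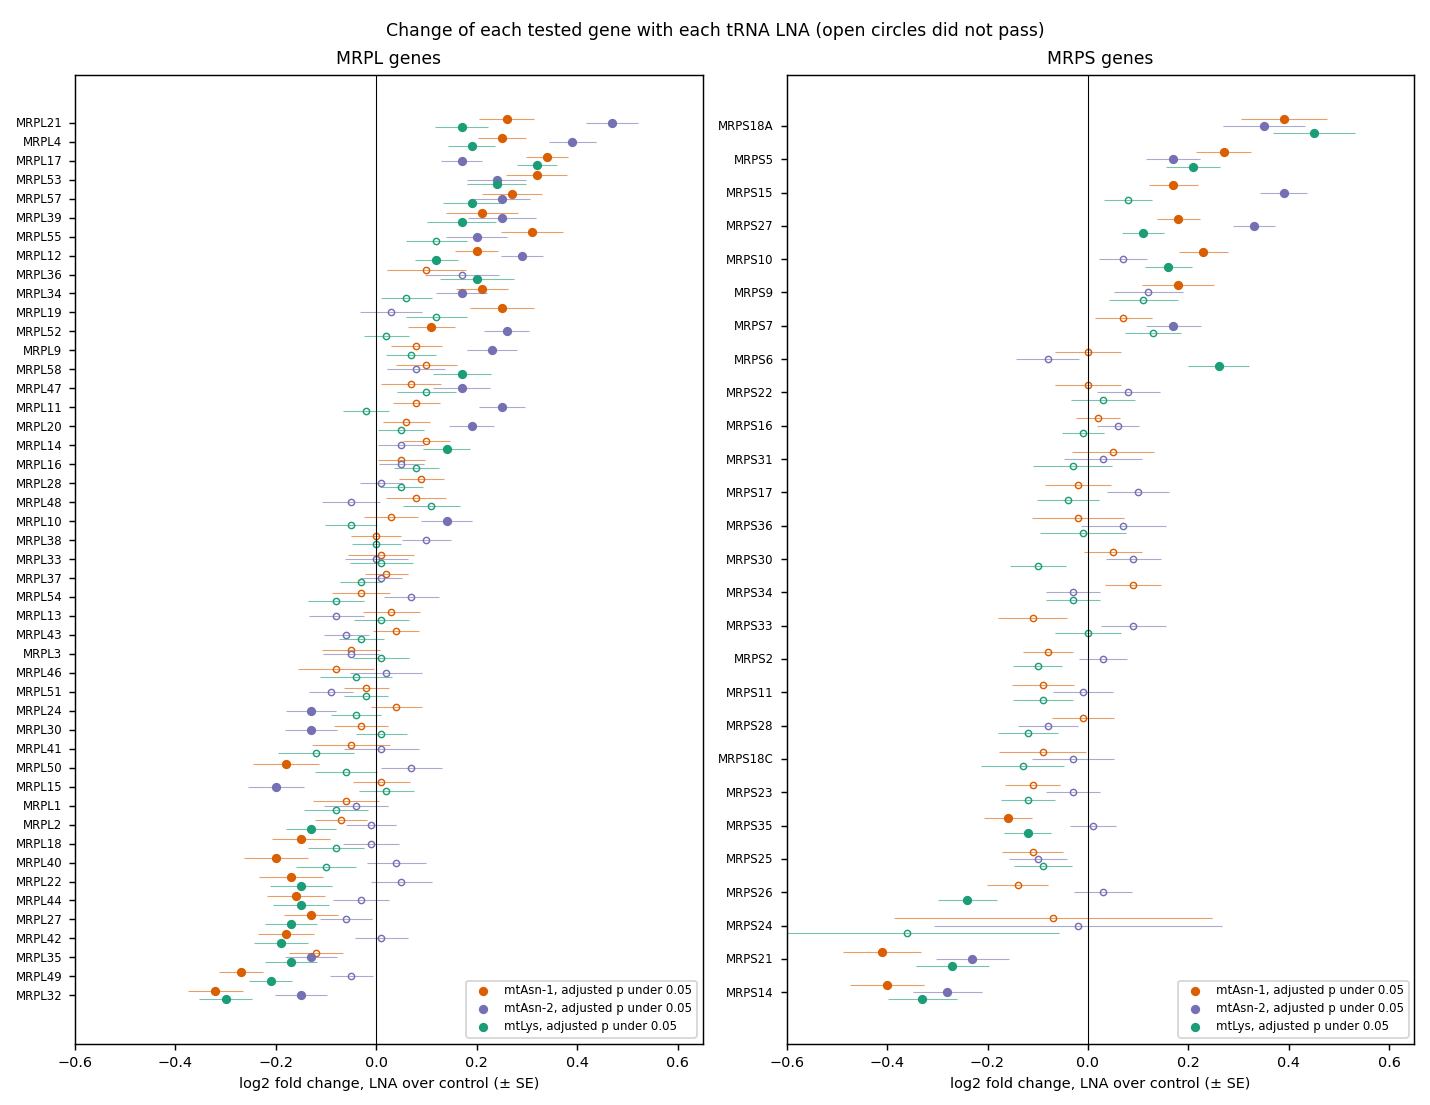
Log2 fold change (± SE) of each tested gene with mtAsn-1, mtAsn-2 and mtLys over control, large subunit letters on the left and small on the right, ordered by the mean of the 3; filled points passed at an adjusted p under 0.05 and open ones did not. MRPS18B, at -1.08 with mtAsn-1 on few reads, is left off. MRPL21, at 0.47 with mtAsn-2, is the highest point.

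Against control, 46 of the 75 genes were called with at least 1 LNA (61.3%, against 72.6% of all genes tested) and 29 with none (38.7%, against 27.4%). No member was called in opposite directions with 2 LNAs, and 6.11% of all genes were. The 3 comparisons share the control libraries, so calls in 1 are not independent of calls in another. In all 3, 10 genes (13.3%, against 10.8% of all genes) were higher (MRPL4, MRPL12, MRPL17, MRPL21, MRPL39, MRPL53, MRPL57, MRPS5, MRPS18A and MRPS27) and 3 (4%, against 12.7%) were lower (MRPL32, MRPS14 and MRPS21).

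MRPL21, a large subunit protein with a bacterial counterpart (chromosome 11, 68891276 to 68903832, minus strand), showed the largest rise with mtAsn-2. It had 38, 38 and 36.6 CPM with mtAsn-1, 45.9, 42.2 and 42.6 CPM with mtAsn-2, 36.1, 34.3 and 35.6 CPM with mtLys, and 30.8, 32.1 and 31.1 CPM with control. Every LNA library lay above every control library, and the mtAsn-2 libraries stood above all others. Log2 fold changes were 0.26 ± 0.055 for mtAsn-1 (SE, edgeR adjusted p = 0.000313), 0.47 ± 0.052 for mtAsn-2 (1.17e-08) and 0.17 ± 0.053 for mtLys (0.00852). MRPL4, a protein that reaches the wall of the exit tunnel in bacterial ribosomes, had the same order of groups. Its libraries held 94.6, 87.9 and 91.9 CPM with mtAsn-1, 99.9, 98.5 and 103 CPM with mtAsn-2, 88.3, 88.7 and 85.7 CPM with mtLys, and 80.2, 79.2 and 70.8 CPM with control, with no overlap with control. It was higher by 0.25 ± 0.048 for mtAsn-1 (log2, SE, edgeR adjusted p = 8.83e-05), 0.39 ± 0.047 for mtAsn-2 (6.86e-08) and 0.19 ± 0.047 for mtLys (0.00166).

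MRPL17, which lies at the exit tunnel (chromosome 11, 6680385 to 6683340, minus strand), was high with mtAsn-1 and mtLys. It stood at 125, 131 and 127 CPM with mtAsn-1, at 113, 112 and 115 CPM with mtAsn-2, at 125, 124 and 129 CPM with mtLys, and at 101, 103 and 97.7 CPM with control. The mtAsn-2 libraries were between the control libraries and those of the other LNAs, without overlap. Log2 fold changes were 0.34 ± 0.041 (SE, edgeR adjusted p = 8.63e-08), 0.17 ± 0.041 (0.000756) and 0.32 ± 0.040 (1.61e-07) with mtAsn-1, mtAsn-2 and mtLys. MRPS18A, one of 3 human homologues of the bacterial protein S18, is named for the small subunit although its protein lies in the large one (chromosome 6, 43671197 to 43687812, minus strand). It was measured at 14.6, 12.4 and 14.3 CPM with mtAsn-1, 13.0, 14.1 and 13.4 CPM with mtAsn-2, 14.7, 13.2 and 15.4 CPM with mtLys, and 10.7, 10.3 and 10.8 CPM with control. All LNA libraries were above the control libraries and the 3 LNA groups overlapped each other. It rose by 0.39 ± 0.086, 0.35 ± 0.082 and 0.45 ± 0.081 on the log2 scale with mtAsn-1, mtAsn-2 and mtLys (SE, edgeR adjusted p = 0.00048, 0.000668 and 4.45e-05). Its exons overlap RSPH9 on the opposite strand over 50.3% of their length, and RSPH9 was counted at 0.333, 0.159, 0.277 and 0.173 CPM on average in the mtAsn-1, mtAsn-2, mtLys and control groups. Pseudogenes of MRPS18A held 4.98% as many counts as the gene.

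Its homologues had other values. MRPS18C, in the small subunit, did not pass against control, with log2 fold changes of -0.09, -0.03 and -0.13 with mtAsn-1, mtAsn-2 and mtLys. MRPS18B was called lower with mtAsn-1 (-1.08 ± 0.418, SE, edgeR adjusted p = 0.0336) on its few reads, at 0.295, 0.286 and 0.180 CPM against 0.485, 0.714 and 0.267 CPM in control libraries, which overlap. That call was lost without control replicate 1 (0.0512), control replicate 2 (0.278) or mtAsn-1 replicate 3 (0.172), with DESeq2 (0.122) and with no filter (0.0564).

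MRPL12 and MRPL53 belong to the flexible stalk that recruits translation factors, and MRPL12 has also been found to bind the mitochondrial RNA polymerase. MRPL12 had 119, 113 and 116 CPM with mtAsn-1, 126, 120 and 123 CPM with mtAsn-2, 112, 106 and 112 CPM with mtLys, and 102, 105 and 95.9 CPM with control. It was higher by 0.20 ± 0.043 for mtAsn-1 (log2, SE, edgeR adjusted p = 0.000353), 0.29 ± 0.043 for mtAsn-2 (1.73e-06) and 0.12 ± 0.043 for mtLys (0.0195). The call with mtLys was lost without control replicate 3 (0.121), mtLys replicate 1 (0.0715) or mtLys replicate 3 (0.0704). MRPL53 was higher with all 3 LNAs, by 0.32 ± 0.061, 0.24 ± 0.058 and 0.24 ± 0.059 (SE, edgeR adjusted p = 6.92e-05, 0.00086 and 0.00108). Its libraries lay between 24.4 and 27.9 CPM with the LNAs and between 21.4 and 22.1 CPM with control.

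The other genes that were higher with all 3 LNAs were MRPL39, MRPL57, MRPS5 and MRPS27. MRPS5, which shapes the mRNA entrance in bacterial ribosomes, rose by 0.27, 0.17 and 0.21 on the log2 scale with mtAsn-1, mtAsn-2 and mtLys, and its mtAsn-2 call was lost without control replicate 2 (edgeR adjusted p = 0.0729). MRPS27, a protein added in the mitochondrial lineage, rose by 0.18, 0.33 and 0.11, and the mtLys call was lost without control replicate 1 (0.199), mtLys replicate 2 (0.0773) or mtLys replicate 3 (0.0808). MRPL57 rose by 0.27, 0.25 and 0.19. MRPL39, next to the exit tunnel, rose by 0.21, 0.25 and 0.17. Its mtAsn-1 call (edgeR adjusted p = 0.0157) was lost without control replicate 1, control replicate 3 or mtAsn-1 replicate 3 (up to 0.0795), and its mtLys call (0.0404) without control replicates 1 or 3 or mtLys replicates 1 or 3 and under 5 other settings (up to 0.140).

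MRPS14, a protein in the head of the small subunit (chromosome 1, 175012958 to 175023455, minus strand), showed the largest fall among called members with mtAsn-2 and with mtLys. It stood at 14.9, 15.1 and 14.6 CPM with mtAsn-1, at 16.3, 16.1 and 16.0 CPM with mtAsn-2, at 15.6, 14.8 and 16.4 CPM with mtLys, and at 19.3, 21.1 and 18.2 CPM with control. No LNA library reached the lowest control library. Its log2 fold changes were -0.40 ± 0.073 for mtAsn-1 (SE, edgeR adjusted p = 4.3e-05), -0.28 ± 0.068 for mtAsn-2 (0.000978) and -0.33 ± 0.069 for mtLys (0.000215).

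MRPS21, another small subunit protein with a bacterial counterpart (chromosome 1, 150293842 to 150308979, plus strand), had 12.2, 13.5 and 13.6 CPM with mtAsn-1, 15.2, 14.9 and 14.3 CPM with mtAsn-2, 14.8, 13.8 and 14.7 CPM with mtLys, and 16.7, 16.9 and 19.1 CPM with control. The groups did not overlap with control. It fell by 0.41 on the log2 scale with mtAsn-1 (edgeR adjusted p = 8.12e-05), by 0.23 with mtAsn-2 (0.00768) and by 0.27 with mtLys (0.00268), and the mtAsn-2 call was lost without control replicate 3 (0.0599) and with library size alone (0.0677). MRPL32, a large subunit protein that a mitochondrial protease matures before assembly (chromosome 7, 42932376 to 42937857, plus strand), was measured at 31.2, 28.8 and 31.1 CPM with mtAsn-1, 34.7, 33.5 and 34.6 CPM with mtAsn-2, 30.1, 31.1 and 31.8 CPM with mtLys, and 37.1, 38.3 and 38.7 CPM with control. All 9 LNA libraries were below the control libraries. Log2 fold changes were -0.32 ± 0.055 for mtAsn-1 (SE, edgeR adjusted p = 1.78e-05), -0.15 ± 0.052 for mtAsn-2 (0.0177) and -0.30 ± 0.052 for mtLys (3e-05). The mtAsn-2 call of MRPL32 was lost without control replicate 2 (0.0557), control replicate 3 (0.0553) or mtAsn-2 replicate 2 (0.0893), and with no filter (0.135), upper-quartile factors (0.0574) or library size alone (0.255).

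**Figure D4:**
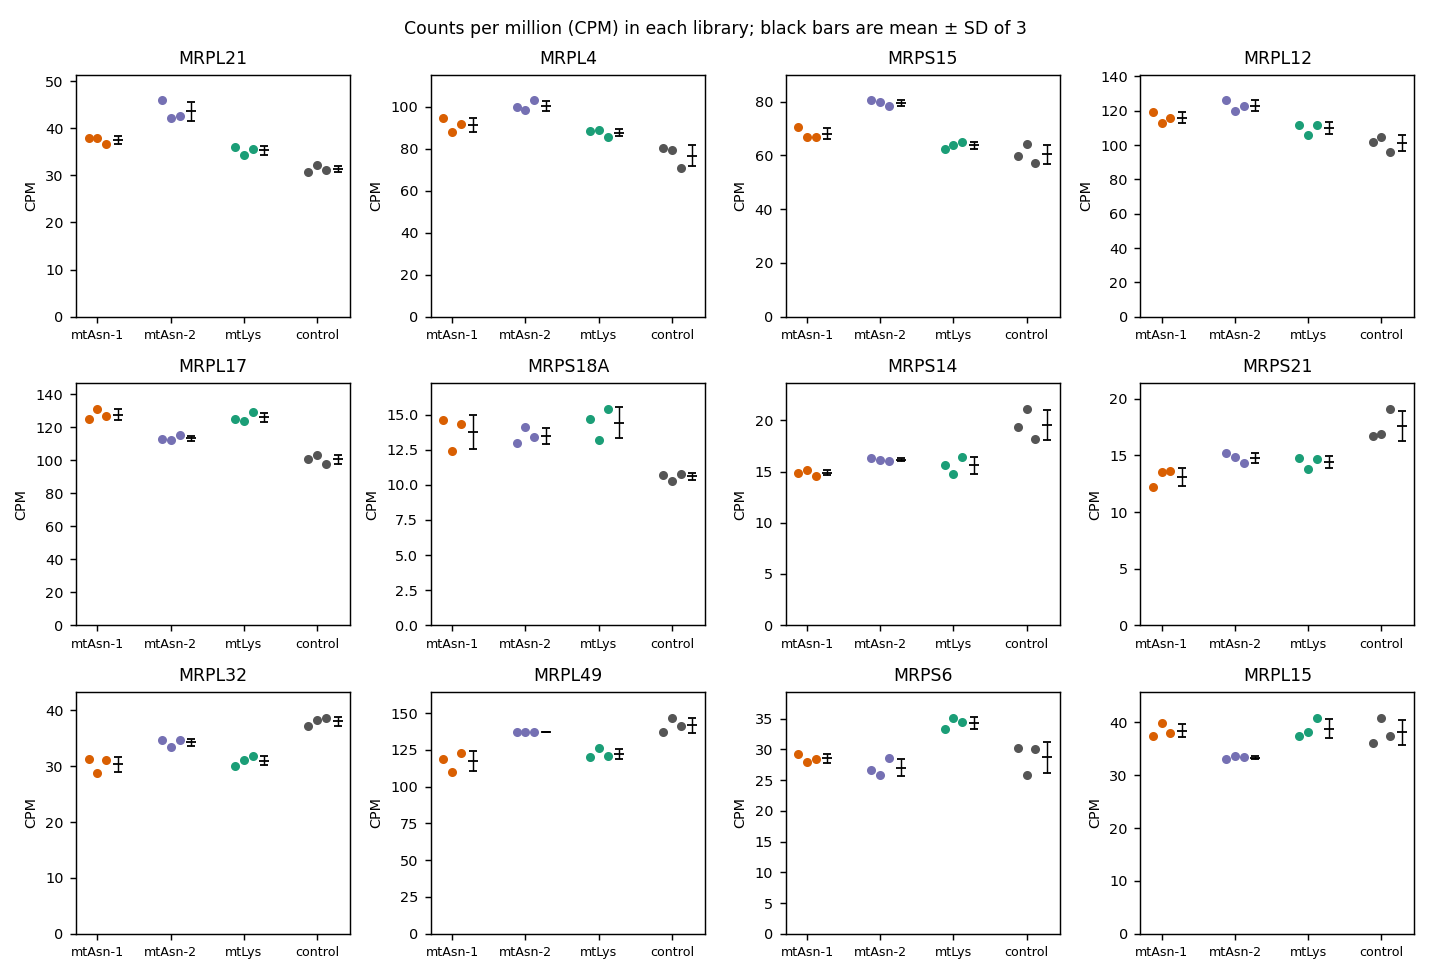
CPM in each library of the mtAsn-1, mtAsn-2, mtLys and control groups for 12 genes; points are libraries and black bars the mean ± SD of 3, on axes from 0. MRPL21, MRPL4 and MRPL12 lie above control with each LNA, MRPS14, MRPS21 and MRPL32 below it, and MRPS6 is high with mtLys alone.

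Further calls were made with 1 or 2 of the LNAs. MRPL49, a large subunit protein of the mitochondrial lineage, fell by 0.27 on the log2 scale with mtAsn-1 (edgeR adjusted p = 1.06e-05) and by 0.21 with mtLys (0.00017), at 119, 110 and 123 CPM with mtAsn-1 and 120, 126 and 121 CPM with mtLys, against 137, 147 and 141 CPM with control. With mtAsn-2 it had 137 CPM in each library and did not pass (-0.05, 0.381). MRPL42 followed the same pattern, at -0.18 with mtAsn-1 (0.00833), -0.19 with mtLys (0.00414) and 0.01 with mtAsn-2 (0.838). MRPL55 rose with mtAsn-1 (0.31, 0.000149) and mtAsn-2 (0.20, 0.00608), and its value with mtLys was 0.12 (0.108). MRPS10, which sits in the head of the small subunit, rose with mtAsn-1 (0.23, 0.000224) and mtLys (0.16, 0.00508). MRPL40 fell with mtAsn-1 (-0.20, 0.00907). MRPS26 fell with mtLys (-0.24, 0.00104), and MRPL36, a small zinc-binding protein in bacteria, rose with mtLys (0.20, 0.0287), which did not hold without control replicate 1 (0.133), control replicate 3 (0.0608) or mtLys replicate 2 (0.115).

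Compared directly with the other LNAs, the mtAsn-2 group had more members higher than lower. For mtAsn-1 over mtAsn-2, 5 genes were called higher and 17 lower (6.67% and 22.7% of 75, against 24.6% and 21.9% of all genes). For mtAsn-2 over mtLys, 21 were called higher and 5 lower (28.0% and 6.67%, against 22.9% and 25.7%). None of the calls for mtAsn-1 over mtAsn-2 was a rise of at least 25% or a fall of at least 20%, where 25.8% of all genes were called at that size. For mtAsn-2 over mtLys MRPS6 was the single one, where 26.4% of all genes were. Both comparisons share the mtAsn-2 libraries. These splits depend on the scaling: they were 0 to 36 and 39 to 2 with library size alone, and 5 to 28 and 29 to 3 with upper-quartile factors. The splits over all 16051 genes shifted the same way. They were 2805 to 5278 and 5446 to 3101 with library size alone, and 3318 to 4421 and 4580 to 3567 with upper-quartile factors.

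MRPS15, an RNA-binding protein of the small subunit, showed the largest called rise of mtAsn-2 over mtLys, at 24.8%. Its libraries held 70.4, 66.8 and 66.9 CPM with mtAsn-1, 80.4, 80.0 and 78.2 CPM with mtAsn-2, 62.4, 63.9 and 65.0 CPM with mtLys, and 59.6, 64.2 and 57.3 CPM with control. The mtAsn-2 libraries were above all others, and those of mtLys and control overlapped. Log2 fold changes were -0.23 ± 0.047 for mtAsn-1 over mtAsn-2 (SE, edgeR adjusted p = 0.000231), 0.32 ± 0.046 for mtAsn-2 over mtLys (1.29e-06) and 0.39 ± 0.047 for mtAsn-2 over control (4.34e-08). MRPL21, described above, was lower with mtAsn-1 than with mtAsn-2 (-0.22, 0.00103) and higher with mtAsn-2 than with mtLys (0.30, 1.24e-05). MRPL50 and MRPL40, both proteins of the mitochondrial lineage, were lower with mtAsn-1 than with mtAsn-2 by 0.25 and 0.24 on the log2 scale (0.00206 and 0.00203).

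MRPL15, a large subunit protein with a bacterial counterpart, went the other way. It had 37.5, 39.8 and 38 CPM with mtAsn-1, 33.0, 33.6 and 33.4 CPM with mtAsn-2, 37.4, 38.1 and 40.9 CPM with mtLys, and 36.1, 40.8 and 37.4 CPM with control, so the mtAsn-2 libraries were the lowest and the other groups overlapped. It was higher with mtAsn-1 than with mtAsn-2 (0.20 ± 0.056, SE, edgeR adjusted p = 0.00363), lower with mtAsn-2 than with mtLys (-0.22 ± 0.054, 0.00138) and lower with mtAsn-2 than with control (-0.20 ± 0.055, 0.00371). The call against control was lost without control replicate 2 (0.0596) and with library size alone (0.0665), and so was that of mtAsn-1 over mtAsn-2 with library size alone (0.0988). MRPL19 and MRPL17 were also higher with mtAsn-1 than with mtAsn-2, by 0.22 (0.00409) and 0.17 (0.00109), calls that library size alone ended (0.0845 and 0.122). MRPL48 was lower with mtAsn-2 than with mtLys (-0.17, 0.0150), a difference that did not pass without mtAsn-2 replicate 2 (0.0872) or mtLys replicate 3 (0.0679), with upper-quartile factors (0.0716) or with library size alone (0.230).

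Few genes were called between mtAsn-1 and mtLys. By edgeR none of the 75 was higher with mtAsn-1 and 1 was lower (1.33%), where 2.12% of all genes were higher, 3.14% lower, and 2.17% called with a rise of at least 25% or a fall of at least 20%. At an unadjusted p under 0.05, 7 were higher and 1 lower, and DESeq2 also called none higher and 1 lower. The gene lower with mtAsn-1 was MRPS6, a small subunit protein (chromosome 21, 34073578 to 34143030, plus strand). It had 29.3, 27.9 and 28.5 CPM with mtAsn-1, 26.7, 25.8 and 28.6 CPM with mtAsn-2, 33.3, 35.2 and 34.5 CPM with mtLys, and 30.3, 25.8 and 30.1 CPM with control. The mtLys libraries lay above all others and the remaining groups overlapped. Log2 fold changes were -0.26 ± 0.063 for mtAsn-1 over mtLys (SE, edgeR adjusted p = 0.0109), -0.34 ± 0.060 for mtAsn-2 over mtLys (2.39e-05) and 0.26 ± 0.061 for mtLys over control (0.000818). The call between mtAsn-1 and mtLys was lost without mtLys replicate 2 (0.0577). MRPS6 shares 168 exon bases with SLC5A3, a myo-inositol transporter gene on the same strand, which averaged 59.5, 63.4, 58.2 and 51.2 CPM with mtAsn-1, mtAsn-2, mtLys and control.

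Grouped by place in the ribosome, the 5 stalk genes (MRPL10, MRPL11, MRPL12, MRPL53 and MRPL54) had 4 calls with mtAsn-2, all of them higher (80.0%, where 24.1% of all genes rose), with a median log2 fold change of 0.24. Of these, the call of MRPL10 (0.14, edgeR adjusted p = 0.0255) was lost without control replicate 1 (0.231) or mtAsn-2 replicate 1 (0.0580). MRPL11, the base of the stalk, had 64.4, 60.4 and 63.5 CPM with mtAsn-1, 71.8, 71.4 and 69.5 CPM with mtAsn-2, 59.2, 58.3 and 58.8 CPM with mtLys, and 58.3, 62.3 and 57.6 CPM with control. It was above control with mtAsn-2 alone, without overlap, at 0.25 ± 0.046 (SE, edgeR adjusted p = 3.18e-05), while its values with mtAsn-1 and mtLys were 0.08 (0.175) and -0.02 (0.778). MRPL54 was the stalk gene that did not pass with mtAsn-2 (0.07, 0.273). With mtAsn-1 and with mtLys, 2 of the 5 rose, MRPL12 and MRPL53. Of the 9 exit tunnel genes 7 were tested, of which 3 rose and 2 fell with mtAsn-1, 4 rose and 1 fell with mtAsn-2, and 2 rose and 2 fell with mtLys. That is 71.4%, 71.4% and 57.1% called in either direction with mtAsn-1, mtAsn-2 and mtLys, beside 48.5%, 51.1% and 48.5% of all genes. MRPL44, an exit tunnel protein with a fold like that of ribonuclease III, fell with mtAsn-1 (-0.16, 0.0276) and mtLys (-0.15, 0.0269), and both calls were lost without control replicate 2 (0.121 and 0.126) and with no filter (0.0792 and 0.0992). Its mtAsn-1 call was also lost without mtAsn-1 replicate 1 (0.0785) or 3 (0.0563) and in the compared groups alone (0.0551), and its mtLys call without mtLys replicate 1 (0.0882) or 2 (0.122). Among the 9 genes of the central protuberance, the crest of the large subunit, 2 rose and 3 fell with mtAsn-1, 2 rose and none fell with mtAsn-2, and 1 rose and 1 fell with mtLys, or 55.6%, 22.2% and 22.2% called. No list was tested against the background. MRPL52 was the one with the lowest p in mtAsn-2 libraries (0.26, 2.04e-05).

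Among large subunit genes with a bacterial counterpart, 7 rose and 4 fell of 29 with mtAsn-1, 11 rose and 5 fell with mtAsn-2, and 6 rose and 5 fell with mtLys. The called shares of 37.9%, 55.2% and 37.9% stood beside 48.5%, 51.1% and 48.5% of all genes. Of the 18 tested without one, 4 rose with each LNA, and 5, 0 and 3 fell with mtAsn-1, mtAsn-2 and mtLys (50%, 22.2% and 38.9% called). In the small subunit, 5, 4 and 4 of 17 genes with a bacterial counterpart rose and 3, 2 and 2 fell with mtAsn-1, mtAsn-2 and mtLys, against 1 of 11 without one that rose with each LNA and 1, 0 and 2 that fell. Called shares were 47.1%, 35.3% and 35.3% with a counterpart and 18.2%, 9.09% and 27.3% without. A list of 11 members linked to inherited mitochondrial disease was drawn up here and need not be complete. Of these 11, 3 were called with each LNA (27.3%, against 48.5%, 51.1% and 48.5% of all genes with mtAsn-1, mtAsn-2 and mtLys). MRPL12 rose and MRPS14 fell with all 3, MRPL44 fell with mtAsn-1 and mtLys, and MRPS7 rose with mtAsn-2 (0.17, 0.0120), which did not hold without control replicate 1 (0.0849) or mtAsn-2 replicate 1 (0.0670). MRPS16, MRPS22 and MRPS34 did not pass with any LNA and lay between -0.03 and 0.09 on the log2 scale.

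Beside MRPS18A, which was higher with all 3 LNAs, MRPS30, MRPS36 and MRPL58 also have a place or task other than the symbol says. MRPS30, found in the large subunit, did not pass against control (0.05, 0.09 and -0.10 with mtAsn-1, mtAsn-2 and mtLys), and neither did MRPS36, a subunit of the 2-oxoglutarate dehydrogenase complex (-0.02, 0.07 and -0.01). MRPL58, a peptidyl-tRNA hydrolase built into the large subunit that frees stalled chains, rose with mtLys (0.17, edgeR adjusted p = 0.0183), which did not pass without control replicate 1 (0.0580), mtLys replicate 2 (0.05) or mtLys replicate 3 (0.0644). The most abundant member, MRPL51, stayed between -0.09 and -0.02 against control and did not pass.

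Promoters of these genes share short motifs that were not used to choose them. RefSeq promoters of GRCh38.p14, 250 bases before to 50 after the start, were found for 69 of the 78 genes, and motifs were searched on both strands. The ETS core CCGGAAG, bound by GABPA and related factors, was in 30 of 69 (43.5%), against 20.8% of 11195 tested genes and 12.2% of 27305 genes with a promoter entry. The YY1 core AAGATGGC was in 21 (30.4%), against 6.06% and 3.52%. Its matches in MRPL32, MRPL36, MRPL47, MRPL52 and MRPS12 lie before the start, and those in the other members lie in the 50 bases after it. Whether matches after the start are part of the coding sequence was not tested. The NRF1 core GCATGCGC was in 6 (8.70%, against 6.07% and 3.68%) and the E-box CACGTG in 9 (13.0%, against 12% and 8.77%). The GC box GGGCGG was in 42 (60.9%), against 74.8% and 48.3%, and the amino acid response element TGATGNAA in 1, MRPL55 (1.45%, against 2.87% and 4.46%). Matches of different motifs overlapped in 1 member, MRPL53, where an ETS core runs into a GC box. A match describes the letters only. By subunit, the ETS core was in 18 of 42 large and 12 of 27 small subunit promoters, and the YY1 core in 13 and 8.

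Promoters of 4 genes called with all 3 LNAs are shown 5′ to 3′ on the gene's strand, 2 that were higher (MRPL17 and MRPS18A) and 2 that were lower (MRPS21 and MRPL32), with motif letters in capitals. MRPL17 (chr11:6683291-6683590, minus strand) holds NRF1 cores in both directions and GC boxes, and MRPS18A (chr6:43687742-43688041, minus strand) an ETS core, a YY1 core and a GC box. MRPS21 (chr1:150293611-150293910, plus strand) holds a pair of ETS cores, and MRPL32 (chr7:42932126-42932425, plus strand) an NRF1 core, a YY1 core and GC boxes.
MRPL17: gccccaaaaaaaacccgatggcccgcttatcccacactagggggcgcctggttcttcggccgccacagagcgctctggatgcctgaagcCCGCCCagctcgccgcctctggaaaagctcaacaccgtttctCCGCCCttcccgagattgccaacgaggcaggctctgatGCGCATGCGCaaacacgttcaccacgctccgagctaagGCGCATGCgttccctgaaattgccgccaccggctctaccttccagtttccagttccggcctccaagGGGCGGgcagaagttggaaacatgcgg
MRPS18A: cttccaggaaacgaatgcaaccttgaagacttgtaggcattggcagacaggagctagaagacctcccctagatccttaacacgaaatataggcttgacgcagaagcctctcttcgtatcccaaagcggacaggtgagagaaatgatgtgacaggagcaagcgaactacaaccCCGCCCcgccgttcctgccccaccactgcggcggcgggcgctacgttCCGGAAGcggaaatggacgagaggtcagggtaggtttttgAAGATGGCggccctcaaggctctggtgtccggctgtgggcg
MRPS21: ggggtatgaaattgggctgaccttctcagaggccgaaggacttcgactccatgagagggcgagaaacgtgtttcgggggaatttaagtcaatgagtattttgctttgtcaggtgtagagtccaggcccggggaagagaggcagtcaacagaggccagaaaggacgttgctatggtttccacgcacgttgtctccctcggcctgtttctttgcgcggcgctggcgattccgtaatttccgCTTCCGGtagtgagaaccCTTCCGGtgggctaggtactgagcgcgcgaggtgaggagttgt
MRPL32: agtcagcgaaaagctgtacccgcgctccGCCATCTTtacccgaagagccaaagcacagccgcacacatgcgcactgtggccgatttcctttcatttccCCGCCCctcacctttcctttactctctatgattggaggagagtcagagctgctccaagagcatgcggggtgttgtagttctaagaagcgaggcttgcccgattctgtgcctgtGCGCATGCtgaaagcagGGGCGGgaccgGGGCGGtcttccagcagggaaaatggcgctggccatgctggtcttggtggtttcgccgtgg
Among these 4 promoters, the ETS, YY1 and NRF1 cores and the GC box each occur in a higher and in a lower gene. MRPL12 and MRPL57, also higher with all 3 LNAs, hold none of the motifs searched, and MRPS14, the other lower gene, holds GC boxes only. Motifs were not compared between genes that rose and genes that fell.

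**Figure D5:**
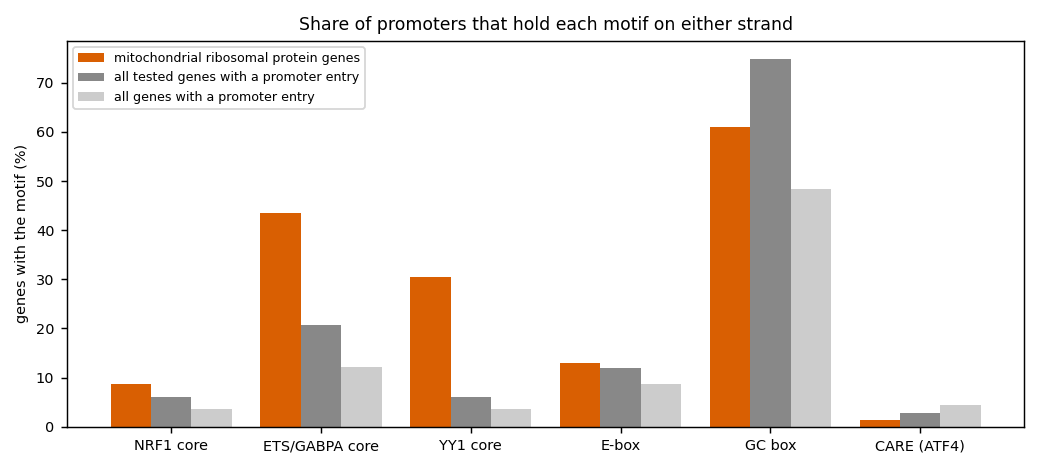
Share of genes (%) whose promoter holds each motif on either strand, for mitochondrial ribosomal protein genes (orange), all tested genes with a promoter entry (dark grey) and all genes with one (light grey). The ETS and YY1 bars are higher for the ribosomal protein genes, at 43.5% and 30.4%, and the GC box bar lies below that of tested genes.

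Of other genes of mitochondrial translation, 5 encode structural proteins of the ribosome under other names. With mtAsn-1, mtAsn-2 and mtLys, 1, 3 and 1 of these rose (20.0%, 60.0% and 20.0%) and none fell. Of all genes 24.3%, 24.1% and 24.6% rose, and 24.2%, 27.0% and 23.9% fell. DAP3, a GTP-binding small subunit protein, rose by 0.36 ± 0.039 with mtAsn-2 (log2, SE, edgeR adjusted p = 1.02e-08), at 168, 164 and 165 CPM against 127, 131 and 129 CPM in control. Of 25 tested assembly factors, 4 rose and 3 fell with mtAsn-1, 7 rose and 2 fell with mtAsn-2, and 4 rose and 4 fell with mtLys. Called shares were 28.0%, 36.0% and 32.0%, beside 48.5%, 51.1% and 48.5% of all genes. Among them MTG1, a GTPase of large subunit assembly, rose with each LNA by more than any ribosomal protein gene: it had 38.6, 34.5 and 35.8 CPM with mtAsn-1, 32.0, 34.2 and 35.6 CPM with mtAsn-2, 35.8, 38.3 and 36.1 CPM with mtLys, and 23.7, 21.9 and 20.2 CPM with control. Its log2 fold changes were 0.72 ± 0.066 (SE, edgeR adjusted p = 4.65e-10), 0.62 ± 0.064 (2.8e-09) and 0.74 ± 0.063 (1.41e-10). MTG2, another such GTPase, fell by 0.97 with mtAsn-2 (9.26e-15), at 34.0, 32.5 and 36.4 CPM against 66.4, 65.8 and 70.5 CPM in control libraries, and its values with mtAsn-1 and mtLys were -0.02 and 0.09, neither of which passed.

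Of 16 translation factors and mRNA-binding proteins, 2 rose and 4 fell with mtAsn-1, 5 rose and 5 fell with mtAsn-2, and 3 rose and 5 fell with mtLys. The shares that rose were 12.5%, 31.2% and 18.8%, beside 24.3%, 24.1% and 24.6% of all genes. The shares that fell were 25.0%, 31.2% and 31.2%, beside 24.2%, 27.0% and 23.9% of all genes. LRPPRC, which stabilises mitochondrial mRNAs, rose by 0.17, 0.43 and 0.22 with mtAsn-1, mtAsn-2 and mtLys, and GFM2, a factor that recycles the ribosome, fell by 0.26, 0.42 and 0.19 (edgeR adjusted p at most 0.00273 in each). Of 13 regulators of mitochondrial transcription and nuclear gene expression, 2 rose and 6 fell with mtAsn-1, 2 rose and 5 fell with mtAsn-2, and 2 rose and 6 fell with mtLys. Of these 13, 15.4% rose with each LNA, beside those 24.3%, 24.1% and 24.6% of all genes. The shares of the 13 that fell were 46.2%, 38.5% and 46.2%, beside 24.2%, 27.0% and 23.9% of all genes. MYC rose by 0.27, 0.49 and 0.20, and YY1 fell by 0.24, 0.24 and 0.25, at 124, 121 and 120 CPM with mtAsn-1, 120, 119 and 125 CPM with mtAsn-2, and 121, 122 and 119 CPM with mtLys, against 144, 146 and 139 CPM with control. PPARGC1B also rose with mtAsn-1 (0.77, edgeR adjusted p = 2.37e-05) and mtLys (0.46, 0.00415), and PPRC1 with mtAsn-2 (0.25, 2.23e-05). POLRMT fell with mtAsn-2 (-0.22, 0.000332) and mtLys (-0.30, 9.66e-06), and TFAM with mtAsn-1 (-0.25, 0.000939). NRF1, GABPA and GABPB1 are on the same list, and their values are not given here. Whether the levels of any of these regulators bear on the ribosomal protein genes was not tested.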

How the data were processed

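The authors deposited a table of raw counts per gene with 1 column for each of 12 libraries and no normalisation. Per the submitters' processing notes, FastQC, STAR 2.6.0a, featureCounts and DESeq2 were used with build hg38, and per the labels' protocols total RNA was made into libraries with the TruSeq RNA kit. Coordinates of genes are those in the file. Of 52897 lines, 38 were broken and left out. The members and gene lists were chosen with earlier results of these data known.

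All 12 libraries entered 1 quasi-likelihood fit (robust) in edgeR 4.0.16 under R 4.3.3, with TMM scaling. Low genes were removed by filterByExpr at a minimum count of 10 and a minimum total of 15. Adjusted p is Benjamini-Hochberg over all 16051 genes tested in a comparison, with calls under 0.05. The standard error is the size of the log2 fold change divided by the square root of its F statistic. The common biological coefficient of variation was 4.21%. CPM used TMM factors, and TPM used exon lengths in the file. SD is over 3 libraries. The fit was tested on simulated data. Ratios and sums had no test.

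Named genes were, per comparison and subunit letter, up to 4 higher and 4 lower with the largest changes among calls without overlap between libraries, up to 6 called alike in all 3 comparisons, members with few counts or another known place, the extremes of TPM, up to 3 and 3 per direct comparison, and up to 2 and 2 per other list. Not every gene that these rules gave is described, for example FASTKD2 and OXA1L of the other lists and MRPL30 and MRPL35 of the members. Other members named, such as MRPL39, were chosen after their values were seen. Replicate numbers showed no sign of pairing: same-numbered libraries correlated at -0.099 to 0.042 in their deviations from group means. These correlations cannot show whether same-numbered libraries were prepared together, which the labels do not state. No library was a copy (chi-square per gene at least 2.43). Alternatives were RLE or upper-quartile factors, library size alone, no filter or a stricter one, DESeq2 1.42.0, a replicate block, the compared groups alone, a further requirement of a rise of 25% or a fall of 20%, and leaving out each library.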

Additional observations from a re-analysis of the deposited data

How the results depend on the processing

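For the 75 tested genes and the named genes of other lists, 11625 values were computed under the alternatives, of which 11131 stayed on their side of the threshold, 296 lost the call, 198 gained it and 0 of the called ones turned in sign. Counts of genes higher and lower moved by over 1.5 times as follows. With a rise of 25% or a fall of 20% required they were, against control, 2 and 3 (mtAsn-1), 5 and 0 (mtAsn-2) and 2 and 1 (mtLys), then 0 and 0 between mtAsn-1 and mtAsn-2, 0 lower between mtAsn-1 and mtLys, and 0 and 1 between mtAsn-2 and mtLys. With library size alone they were 34 and 1 (mtAsn-2 against control), 0 and 36 (mtAsn-1 against mtAsn-2) and 39 and 2 (mtAsn-2 against mtLys). Over all genes tested the counts in that setting were 5158 and 3344, 2805 and 5278, and 5446 and 3101 in the same order. The mtAsn-2 TMM factors were above those of the other groups. With upper-quartile factors 3 were lower with mtAsn-2 than control, 28 lower with mtAsn-1 than mtAsn-2 and 3 lower with mtAsn-2 than mtLys. Over all genes tested these lower counts were 3917, 4421 and 3567. Lower counts against control were 8 (mtAsn-1) and 3 (mtAsn-2) with no filter, 7 and 4 with the compared groups alone, and 4 with DESeq2 for mtAsn-2. The cause of these moves was not tested. Leaving out 1 library gave 14 to 17 higher and 6 to 14 lower with mtAsn-1, 17 to 22 and 3 to 9 with mtAsn-2, and 10 to 17 and 6 to 13 with mtLys against control. It gave 5 to 7 and 13 to 18 between mtAsn-1 and mtAsn-2, 0 to 1 and 0 to 1 between mtAsn-1 and mtLys, 15 to 23 and 3 to 5 between mtAsn-2 and mtLys, and 36 to 42 in the 4-group test. Calls that held under every alternative other than the fold threshold numbered 14 of 17 and 6 of 13 with mtAsn-1, 15 of 20 and 1 of 7 with mtAsn-2 (MRPS14), and 9 of 15 and 6 of 12 with mtLys. With the replicate block, whose numbers showed no sign of pairing, the counts were 15 and 10, 20 and 5, and 14 and 11 against control. The log2 difference of the large to small ratio from control, 0.006, -0.015 and 0.006 with mtAsn-1, mtAsn-2 and mtLys, was 0.041, 0.017 and -0.020 from medians of log2 CPM and -0.026 with mtAsn-2 from summed RPKM. Without 1 library it ran over 0.001 to 0.010, -0.020 to -0.011 and 0.001 to 0.010. The log2 difference of summed CPM was 0.149 with mtAsn-2 and library size alone, and without 1 library 0.022 to 0.059, 0.060 to 0.097 and -0.003 to 0.034.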
